A study of Homo sapiens with 6 samples.

Results

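MDA-MB-231 cells treated with 200 nM PCI-24781 for 48 h were compared with cells given DMSO, its solvent, for the same time. The comparison rests on 2 of the 6 RNA-seq libraries of the series, the library labelled 200 nM 48 h and the library labelled DMSO 48 h, and every other condition (DMSO, 100 nM and 200 nM at 24 h, and 100 nM at 48 h) also has 1 library. The line MDA-MB-231 comes from a triple-negative breast tumour and has mesenchymal features, and adherent, otherwise untreated cells of the line were used in all groups. Genes whose FPKM was 1 or more in at least 1 of the 2 libraries were compared, 11665 of the 16623 genes, and are called the tested genes, although no statistical test was possible. The change of a gene is given as log2((FPKM + 1) ratio), 200 nM 48 h over DMSO 48 h. FPKM, calculated by the authors, is the number of fragments scaled to transcript length and to library size. With 1 library per condition no difference has a replicate check and no p-value can be given.

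PCI-24781 inhibits zinc-dependent histone deacetylases (HDACs). These enzymes remove acetyl groups from lysines of histone tails and of other proteins, and work within corepressor complexes that are brought to genes by transcription factors. When they are inhibited, acetylation accumulates around promoters and enhancers, and expression goes up at some genes, often silent or lineage-restricted ones, and down at others. In breast cancer cells, HDAC inhibitors are known for slowing the cell cycle and for changing genes of differentiation and adhesion.

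The cells carried the markers of their label. VIM was at 2030 FPKM in DMSO 48 h and 1629 in 200 nM 48 h, AXL was at 377 and 333, and ESR1 was at 0 and 0.04. Among other genes listed as low in the line, PGR, CDH1 and GATA3 were under 1 FPKM in both libraries. In contrast ERBB2 was at 17.05 and 14.5 FPKM, EPCAM at 2.99 and 2.35, and FOXA1 at 1.59 and 1.52. Of the defining markers of other cells, CD3E was listed at 0 in both libraries and CDH5, VWF, PDGFRA, DCN and LUM did not exceed 0.06 FPKM, while COL1A1, PDGFRB, PECAM1, CD68 and PTPRC were detected (0.76 to 87.9 FPKM in DMSO 48 h). The depth, inferred from the steps between low values, was about 15600000 fragments for 200 nM 48 h, the lowest of the 6 libraries, and 17600000 for DMSO 48 h. A transcript of 2 kb with 3 fragments would then be listed at 0.096 FPKM and 0.085 FPKM.

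For most genes raised at 24 h, the order of the 48 h libraries did not follow their labelled doses. Among the 523 genes that exceeded DMSO 24 h by at least 2-fold in the 200 nM 24 h library, libraries that the 48 h comparison does not use, 441 were lower in the library labelled 100 nM 48 h than in the library labelled DMSO 48 h, with a median difference of -0.30 on the log2 scale. The share of all genes that were lower was not counted. Over all genes the median FPKM was 5.37 in 100 nM 48 h and 5.57 in DMSO 48 h. Whether those labels were exchanged cannot be told apart from a property of either culture. Labels are therefore used as given, and the value in the library labelled 100 nM 48 h is printed beside the genes past 2-fold and beside most, not all, of the others.

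In the 48 h comparison, 24 genes (0.206% of those tested) were at least 2-fold higher and 7 (0.0600%) were at least 2-fold lower with 200 nM PCI-24781. At 1.5-fold the numbers were 178 (1.53%) and 54 (0.463%). The higher genes included TNFSF18, PCDH1, SCG2, 3 pregnancy-specific glycoprotein genes, 2 serpin genes and the EGFR ligand gene AREG, and also SERF1A, RFPL4AL1, NANOS1, CYP1A1, CDRT4 and STAT4. The lower genes included the immunoproteasome subunit PSMB10 and the stress-response transcription factor genes ATF5 and NUPR1. Most of the transcriptome stood close to equality, with a median change of 0.01, a standard deviation of 0.21, and 98.0% of the tested genes within 1.5-fold. Of all tested genes 51.0% were higher and 48.6% lower by any amount, and at a mean of 1 to 5 FPKM 1744 of 2862 were higher, which is the background for the counts by gene list given further on. In RNA from a whole culture, a change in every cell and a change in the share of cells that express a gene cannot be told apart.

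**Figure D1:**
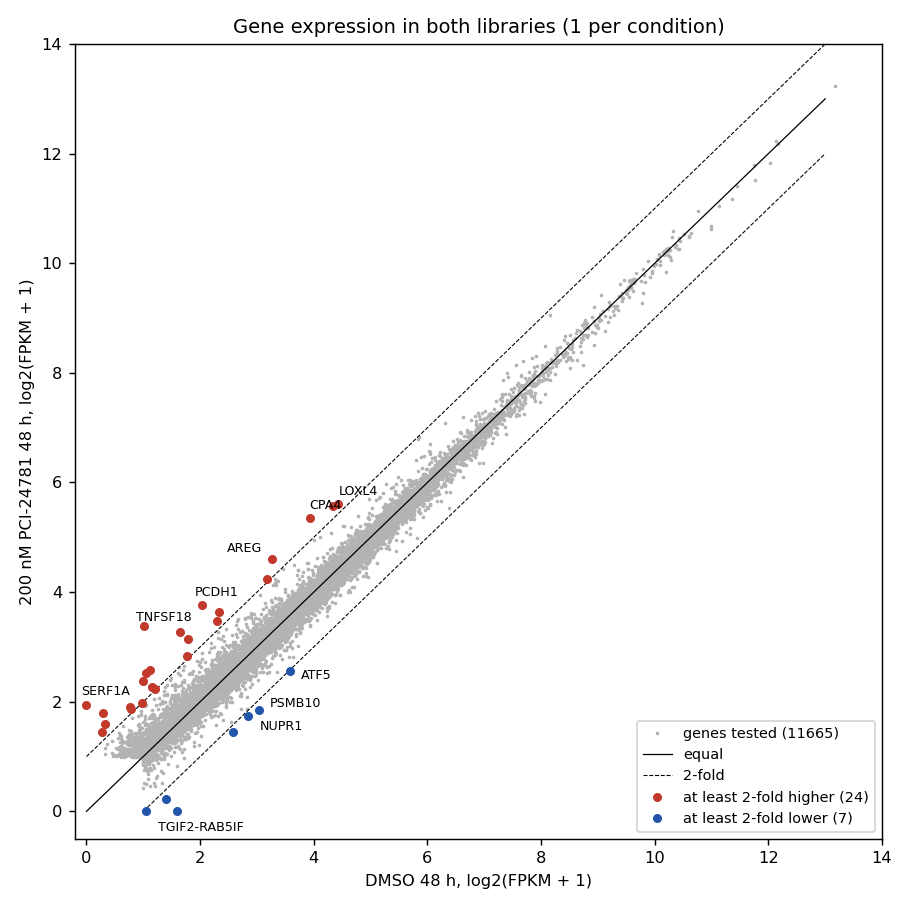
Expression of each tested gene (grey points) in the DMSO 48 h library (x axis) and the 200 nM 48 h library (y axis), both as log2(FPKM + 1), 1 library per condition. The 24 genes at least 2-fold higher (red) lie at low to middle expression above the upper dashed line and the 7 at least 2-fold lower (blue) lie below the lower one, while no gene past 2-fold has a mean FPKM of 50 or more.

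Genes past 2-fold were genes of low expression. In DMSO 48 h, 19 of the 24 higher genes were under 5 FPKM, 8 were under 1 FPKM and 1, LOXL4, was at 20 FPKM or more, with medians over the 24 of 1.28 FPKM in DMSO 48 h and 5.52 FPKM in 200 nM 48 h. Since a pseudocount of 1 was added, the change of such genes is understated. More genes entered the comparison through the 200 nM library alone (262) than through the DMSO library alone (83), and among tested genes with a mean FPKM from 1 to 5 the median change was 0.06, against -0.03 at a mean of 200 FPKM or more. Just inside the 2-fold limit were STAT4 (log2 change 1.004) and SCIN (1.02), and just outside it MMP15 (0.99) and FGGY (0.99). On the lower side ATF5 (-1.03) was inside and DNLZ (-0.96) and PEX39 (-0.92) were outside.

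Promoter sequences are given for 4 of the higher genes and 3 lower ones, picked after changes and motif matches had been seen to show the motifs counted further on, and not by rank. Each runs 5′ to 3′ on the strand of the gene from 250 bases before to 50 bases after the first RefSeq start listed (GRCh38.p14), in lower case with matches to 8 short motifs in capitals. These were the GC box GGGCGG, the CCAAT box CCAAT, the TATA box TATAAA, the AP-1 site TGANTCA, the CRE TGACGTCA, the E-box CACGTG, the E2F site TTTGGCGC and the core of the interferon-stimulated response element, GAAANNGAA, all searched on both strands, the last one chosen after values had been seen. Matches can overlap each other, as the 2 TATA box matches of CPA4 do. TNFSF18 (chr1:173050892-173051191, minus strand) had the largest change among genes detected in both libraries, CPA4 (chr7:130292911-130293210, plus strand) and SERPINB2 (chr18:63887455-63887754, plus strand) show a TATA box beside AP-1 sites, and AREG (chr4:74444886-74445185, plus strand) holds a CRE. PSMB10 (chr16:67936801-67937100, minus strand), ATF5 (chr19:49928656-49928955, plus strand) and IFIT3 (chr10:89327747-89328046, plus strand) are lower genes with the interferon-response core, IFIT3 by less than 1.5-fold.
TNFSF18: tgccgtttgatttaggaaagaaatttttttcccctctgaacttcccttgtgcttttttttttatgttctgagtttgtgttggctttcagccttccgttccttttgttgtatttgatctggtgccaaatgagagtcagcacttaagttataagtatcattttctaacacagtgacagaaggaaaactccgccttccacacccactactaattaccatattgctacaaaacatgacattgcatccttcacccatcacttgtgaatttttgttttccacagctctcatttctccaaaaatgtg
CPA4: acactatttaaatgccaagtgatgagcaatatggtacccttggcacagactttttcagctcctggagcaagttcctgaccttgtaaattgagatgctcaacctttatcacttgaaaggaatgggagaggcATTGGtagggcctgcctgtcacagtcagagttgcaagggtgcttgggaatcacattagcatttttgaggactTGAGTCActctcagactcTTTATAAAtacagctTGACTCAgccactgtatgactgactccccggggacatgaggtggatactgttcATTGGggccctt
SERPINB2: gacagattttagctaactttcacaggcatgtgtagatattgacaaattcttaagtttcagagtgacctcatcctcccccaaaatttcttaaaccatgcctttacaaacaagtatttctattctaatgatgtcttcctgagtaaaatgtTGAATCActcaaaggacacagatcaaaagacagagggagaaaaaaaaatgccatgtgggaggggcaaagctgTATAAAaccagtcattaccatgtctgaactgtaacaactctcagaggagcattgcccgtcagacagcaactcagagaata
AREG: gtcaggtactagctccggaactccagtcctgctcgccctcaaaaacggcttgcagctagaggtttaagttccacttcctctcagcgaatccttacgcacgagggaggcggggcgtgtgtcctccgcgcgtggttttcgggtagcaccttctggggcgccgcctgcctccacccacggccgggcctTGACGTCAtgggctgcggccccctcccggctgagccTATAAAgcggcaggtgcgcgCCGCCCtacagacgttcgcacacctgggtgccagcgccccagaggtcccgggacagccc
PSMB10: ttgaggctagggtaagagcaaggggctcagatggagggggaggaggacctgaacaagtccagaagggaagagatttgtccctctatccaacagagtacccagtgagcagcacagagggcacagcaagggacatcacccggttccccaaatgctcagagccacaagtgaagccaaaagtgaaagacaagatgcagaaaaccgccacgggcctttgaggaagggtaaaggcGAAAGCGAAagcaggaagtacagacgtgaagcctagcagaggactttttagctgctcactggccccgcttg
ATF5: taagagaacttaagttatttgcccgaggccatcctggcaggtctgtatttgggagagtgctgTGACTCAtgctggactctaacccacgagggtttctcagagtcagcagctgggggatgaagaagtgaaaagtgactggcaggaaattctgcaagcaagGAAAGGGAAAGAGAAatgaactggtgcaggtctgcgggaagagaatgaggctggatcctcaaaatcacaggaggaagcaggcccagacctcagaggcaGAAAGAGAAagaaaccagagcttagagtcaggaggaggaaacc
IFIT3: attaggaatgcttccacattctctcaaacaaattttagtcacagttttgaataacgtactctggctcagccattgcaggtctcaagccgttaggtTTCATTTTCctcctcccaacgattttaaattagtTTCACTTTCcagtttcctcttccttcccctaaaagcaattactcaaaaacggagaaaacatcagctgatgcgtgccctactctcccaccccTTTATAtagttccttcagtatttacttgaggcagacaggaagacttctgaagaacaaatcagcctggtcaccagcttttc

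Promoters of the higher genes were poor in CG dinucleotides. Of the 24 genes, 19 matched a promoter in the RefSeq table, and their median was 6 CG dinucleotides in 300 bases, against 27 for the 9626 tested genes with a promoter and 14 for all 27305 genes of the table. Fewer than 10 were present in 11 of the 19 (57.9%), against 9.84% of tested genes. The TNFSF18 promoter printed above has 3, those of CPA4 and SERPINB2 have 1 each, and that of AREG has 27. The range was wide, since NANOS1 has 51 and LOXL4 has 45. Over the wider group of 133 genes at least 1.5-fold higher the median was 20, and 33.1% had fewer than 10. Of tested genes under 10 FPKM in both libraries 13.5% had fewer than 10, against 33.3% of the 90 such genes that were 1.5-fold higher. These are descriptions over few promoters, with no test.

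TATAAA was present in 6 of the 19 promoters (31.6%), compared with 5.16% of tested genes and 11.95% of all genes in the table. The 6 were RFPL4AL1, CPA4, AREG, SERPINB2, CYP1A1 and SCIN, and in CPA4, SERPINB2 and AREG the match began 28 to 30 bases before the start. TGANTCA was present in 5 (26.3%; CPA4, SERPINB2, SYP, F2RL2 and STAT4), compared with 4.25% and 7.76%. At 1.5-fold the shares were 16.5% and 9.77%. GGGCGG was present in 47.4% against 71.5% of tested genes, CCAAT in 26.3% against 36.9%, TGACGTCA in 5.26% against 3.40%, CACGTG in 5.26% against 10.3%, and TTTGGCGC in 0 of 19 against 1.18%. Limiting the count to genes with 1 listed start left 16 promoters, a median of 6.5 CG dinucleotides, 37.5% with TATAAA and 25% with TGANTCA.

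**Figure D2:**
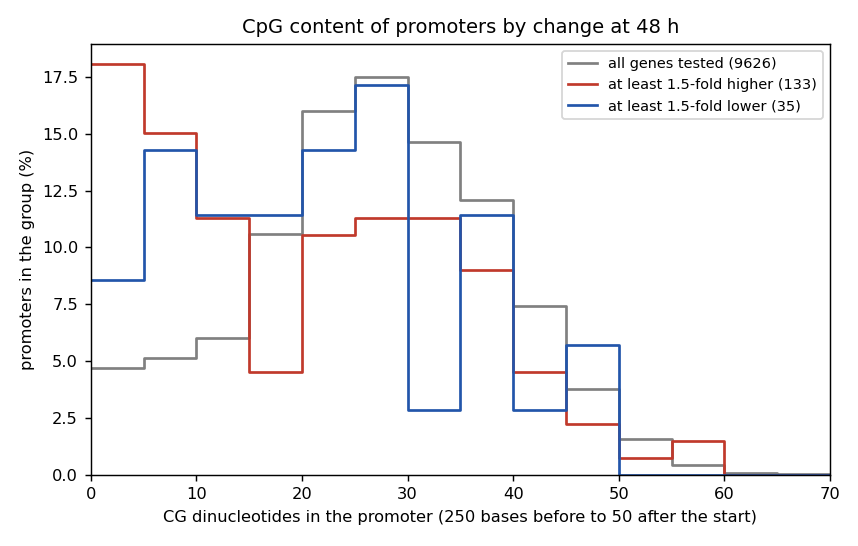
Percentage of promoters (y axis) by their number of CG dinucleotides in 300 bases, in bins of 5 (x axis), for all tested genes (grey, 9626), genes at least 1.5-fold higher (red, 133) and at least 1.5-fold lower (blue, 35). The higher genes have 33.1% of their promoters below 10, the lower genes 22.9% and all tested genes 9.84%.

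Among the higher genes, the surface ligand gene TNFSF18 (NCBI Gene ID 8995; hg19 chromosome 1, 173010360 to 173020103), which encodes the ligand of the costimulatory receptor GITR, showed the largest change. It was at 1.01 FPKM in DMSO 48 h, 0.38 in 100 nM 48 h and 9.43 in 200 nM 48 h, a log2 change of 2.38 or a plain ratio of 9.34. At 24 h it was at 0.08 in DMSO, 0.94 in 100 nM and 5.70 in 200 nM. The highest value of the 6 was thus the one considered here.

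The protocadherin gene PCDH1 (NCBI Gene ID 5097), which encodes an adhesion protein of epithelial surfaces, was at 3.08 FPKM in DMSO 48 h, 0.15 in 100 nM 48 h and 12.5 in 200 nM 48 h (log2 change 1.73). At 24 h its values were 0.08, 3.21 and 10.2 FPKM for DMSO, 100 nM and 200 nM. Both 200 nM libraries were above the other 4. The cadherin family otherwise moved less: of the 12 cadherins and protocadherins tested, 9 were higher and 3 lower, beside 51.0% higher over all tested genes, with a median of 0.24 and with FAT4 (0.49) as the next in size. Counting all 30 found, most of them below 1 FPKM, 19 were higher and 9 were lower, with a median of 0.02.

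The neuroendocrine vesicle genes SCG2 and SYP stood among the higher genes. SCG2, which encodes the dense-core granule protein secretogranin II, was at 2.14 FPKM in DMSO 48 h, 0.38 in 100 nM 48 h and 8.70 in 200 nM 48 h (log2 change 1.63), after 0.19, 2.85 and 9.28 at 24 h. SYP, which encodes the synaptic vesicle protein synaptophysin, was at 0.73, 0.77 and 2.65 FPKM in the 48 h libraries in the same order (log2 change 1.08), and at 0.65, 1.58 and 6.4 at 24 h. For SYP the 3 libraries DMSO 24 h, DMSO 48 h and 100 nM 48 h lay within 0.12 FPKM of each other. The microtubule-associated protein genes MAP2 (1.94 FPKM in DMSO 48 h, 0.41 in 100 nM 48 h and 3.99 in 200 nM 48 h, log2 change 0.76) and MAPT (4.07, 2.53 and 6.47, 0.56) were next. Of the 15 neuronal and neuroendocrine genes tested, 8 were higher and 7 lower (median 0.15), beside 51.0% higher over all tested genes. Past 1.5-fold, 3 of them were higher and 0 lower, beside 1.53% higher and 0.463% lower over all tested genes. Over the 39 found the median was 0.00. Among the 15, 1 (SYP) was tested through the 200 nM library only. NCAM1 was at 0.01 FPKM in both libraries.

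Placental and serpin genes formed a further part of the 24. PSG1, PSG4 and PSG5 encode pregnancy-specific glycoproteins, secreted proteins of the trophoblast, from a cluster on chromosome 19. PSG4 was at 4.01 FPKM in DMSO 48 h, 2.50 in 100 nM 48 h and 11.4 in 200 nM 48 h (log2 change 1.31), PSG5 at 1.17, 0.40 and 4.95 (1.46), and PSG1 at 0.99, 0.35 and 4.21 (1.39). At 24 h the 200 nM library had 10.9 FPKM of PSG4 but 0.99 of PSG5 and 1.06 of PSG1, so that PSG1 and PSG5 were higher at 48 h than at 24 h. The rest of the family was looked up after these values had been seen. Among the 10 PSG genes found, 9 were higher in 200 nM 48 h, beside 51.6% of all genes listed, and PSG11 was at 0.10 and 0.07 FPKM. The 9 include PSG1, PSG4 and PSG5, which had led to the look-up. Only these 3 were tested, and the other PSG genes were under 1 FPKM in both libraries. Summed over the 10, FPKM was 6.83 in DMSO 48 h, 3.56 in 100 nM 48 h and 23.4 in 200 nM 48 h. In a global alignment of the PSG4 and PSG5 promoters, 253 of 331 columns (76.4%) held identical bases. Columns with a gap are counted among the 331, so the share over paired bases is higher. The genes form a family of close copies, and how well fragments could be assigned to single members was not measured.

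SERPINB2, which encodes plasminogen activator inhibitor 2, was at 0.26 FPKM in DMSO 48 h, 0.06 in 100 nM 48 h and 2.01 in 200 nM 48 h (log2 change 1.26; about 9.31 and 63.8 fragments in DMSO and 200 nM). SERPINB7, a serpin of epithelia, was at 1.06, 0.13 and 4.74 FPKM (1.48). Both lie on chromosome 18, where SERPINB8, which lies within the same cluster, was at 11.5 FPKM in DMSO 48 h and 9.44 in 200 nM 48 h. The neuroserpin gene SERPINI1 was at 2.06, 0.95 and 4.76 FPKM (0.91). Among the other plasminogen activator genes, SERPINE2 was at 13.01, 9.06 and 19.7 FPKM (0.56), whereas PLAU was at 94.0, 66.7 and 85.4 and PLAUR at 57.5, 46.4 and 49.5 FPKM.

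Ligands, receptors and signal components were represented by AREG, F2RL2, TNFRSF11B, SOST and STAT4. AREG, an EGFR ligand, was at 8.66 FPKM in DMSO 48 h, 3.42 in 100 nM 48 h and 23.4 in 200 nM 48 h (log2 change 1.34), and at 1.69, 9.50 and 18.8 FPKM at 24 h in DMSO, 100 nM and 200 nM. Of 8 EGFR family members and ligands tested, 7 were higher, beside 51.0% of all tested genes. Behind AREG came EREG (1.53 FPKM in DMSO 48 h, 0.69 in 100 nM 48 h and 2.46 in 200 nM 48 h, 0.45), the receptor gene ERBB3 (3.56, 3.56 and 4.66, 0.31) and TGFA (38.4, 34.3 and 47.0, 0.29), and ERBB2 was at 17.05, 20.7 and 14.5 FPKM (-0.22). Receptor EGFR itself was at 35.1, 35.9 and 37.6 FPKM.

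F2RL2, which encodes the thrombin-cleaved receptor PAR3, was at 8.01 FPKM in DMSO 48 h, 2.71 in 100 nM 48 h and 17.9 in 200 nM 48 h (log2 change 1.07). TNFRSF11B, which encodes the decoy receptor osteoprotegerin, was at 2.40, 0.52 and 6.09 FPKM (1.06), and SOST, which encodes the WNT antagonist sclerostin, at 0.70, 0.12 and 2.72 (1.13). STAT4, a transcription factor of cytokine signalling, was at 0.96, 0.36 and 2.93 (1.004). For all 4 of these genes the library labelled 100 nM 48 h was below that labelled DMSO 48 h. WNT antagonists were also present just below the limit: DKK1 was at 56.7 FPKM in DMSO 48 h, 30.5 in 100 nM 48 h and 112 in 200 nM 48 h (0.97), and DKK3 at 1.82, 0.70 and 4.43 (0.95).

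Further genes past 2-fold encode enzymes and structural proteins. CPA4 (NCBI Gene ID 51200), a secreted carboxypeptidase known to be induced by HDAC inhibitors, was at 14.2 FPKM in DMSO 48 h, 7.0 in 100 nM 48 h and 39.6 in 200 nM 48 h (log2 change 1.42), below the 72.0 FPKM of 200 nM 24 h. LOXL4, a lysyl oxidase that crosslinks matrix, was at 20.6, 10.4 and 47.5 FPKM (1.17), and CYP1A1, a cytochrome P450 controlled by the aryl hydrocarbon receptor, at 3.89, 4.38 and 10.2 (1.19) after 4.50 in DMSO and 34.7 in 200 nM at 24 h. TJP3, which encodes the tight junction protein ZO-3, was at 1.23, 0.39 and 3.80 FPKM (1.11). SCIN, a calcium-dependent actin-severing protein gene, was at 1.32, 0.31 and 3.70 FPKM (1.02), and NANOS1, which encodes a translational repressor of the germ line, at 2.43, 1.36 and 7.86 (1.37).

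A further 3 higher genes have near-identical or overlapping relatives, which were looked up after the values had been seen. How fragments were divided among them was not measured. SERF1A was listed at 0 in DMSO 48 h, 100 nM 48 h and 200 nM 24 h but at 2.82 FPKM in 200 nM 48 h and 9.03 in DMSO 24 h, and together with its copy SERF1B it was at 17.8 FPKM in DMSO 48 h and 13.7 in 200 nM 48 h. CDRT4 was at 0.21, 0.94 and 1.74 FPKM in DMSO 48 h, 100 nM 48 h and 200 nM 48 h, while the read-through gene TVP23C-CDRT4 was at 2.95, 2.66 and 1.31. RFPL4AL1 was at 0.23, 0.35 and 2.49 FPKM and its relative RFPL4A at 1.74, 0.54 and 2.34, so that both were highest in 200 nM 48 h.

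**Figure D3:**
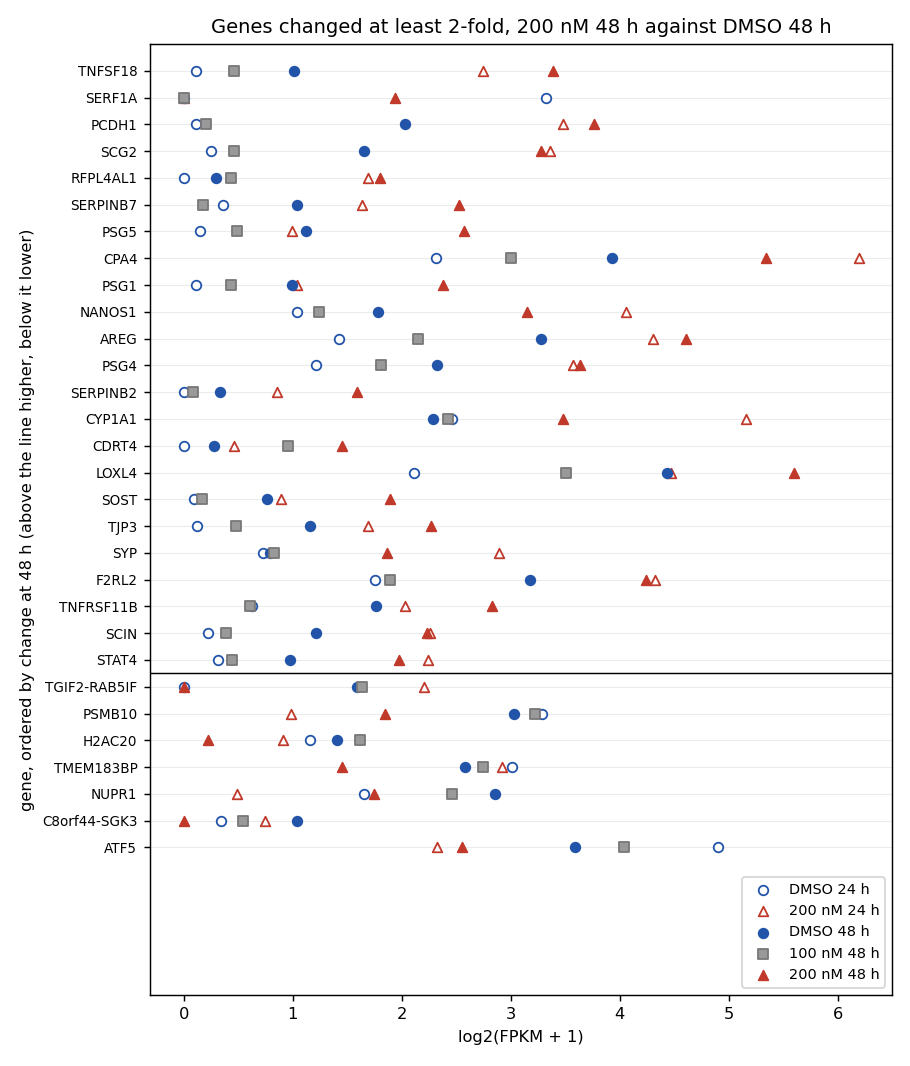
Expression (x axis, log2(FPKM + 1)) of 30 of the 31 genes at least 2-fold higher or lower (y axis) in DMSO 24 h, 200 nM 24 h, DMSO 48 h, 100 nM 48 h and 200 nM 48 h, 1 library each. Blue circles are DMSO, grey squares 100 nM and red triangles 200 nM, with open symbols for 24 h. For most genes above the line both red triangles lie to the right, and SERF1A is an exception, at 9.03 FPKM in DMSO 24 h.

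Among the lower genes, PSMB10 (NCBI Gene ID 5699; hg19 chromosome 16, 67968407 to 67970780), which encodes a catalytic subunit of the interferon-inducible immunoproteasome, was at 7.18 FPKM in DMSO 48 h, 8.35 in 100 nM 48 h and 2.59 in 200 nM 48 h, a log2 change of -1.19. At 24 h it was at 8.72 in DMSO, 3.24 in 100 nM and 0.98 in 200 nM. The 2 lowest values of the 6 were those of 200 nM. The other immunoproteasome subunits moved less, with PSMB9 at 13.6, 13.4 and 11.4 FPKM in DMSO 48 h, 100 nM 48 h and 200 nM 48 h (-0.24) and PSMB8 at 30.5, 29.3 and 26.1 (-0.22).

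ATF5 (NCBI Gene ID 22809), a transcription factor gene of the integrated and mitochondrial stress responses, was at 11 FPKM in DMSO 48 h, 15.4 in 100 nM 48 h and 4.87 in 200 nM 48 h (log2 change -1.03), and at 28.8, 9.78 and 4.01 FPKM at 24 h in DMSO, 100 nM and 200 nM. NUPR1, a stress-induced transcriptional regulator, was at 6.21, 4.51 and 2.35 FPKM in the 48 h libraries (-1.11) but at 2.14 FPKM in DMSO 24 h, close to its value in 200 nM 48 h. Of the 29 integrated stress response genes tested, 11 were higher and 18 lower (median -0.04), beside 48.6% lower over all tested genes, and against 100 nM 48 h 15 were higher and 14 lower. ATF5 and NUPR1 were the members past 1.5-fold, both lower, beside 0.463% of all tested genes past 1.5-fold lower.

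The remaining 4 lower genes were of low expression, and 3 of them are copies of or overlap other genes, among which the division of fragments was not measured. H2AC20, a clustered histone gene, was at 1.65 FPKM in DMSO 48 h, 2.06 in 100 nM 48 h and 0.17 in 200 nM 48 h, or about 11.3 fragments in DMSO and 1.03 in 200 nM. TMEM183BP, a retrocopy of TMEM183A, was at 4.98, 5.70 and 1.74 FPKM while TMEM183A was at 26.8, 27.8 and 28.5. The read-through genes TGIF2-RAB5IF (2.0 FPKM in DMSO 48 h and 2.11 in 100 nM 48 h) and C8orf44-SGK3 (1.06 and 0.46) were listed at 0 in 200 nM 48 h. In DMSO 48 h and 200 nM 48 h, SGK3, which overlaps the latter, was at 1.78 and 4.25 FPKM, TGIF2 at 9.12 and 9.16, and RAB5IF at 80.9 and 85.2.

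Below the 2-fold limit, the next lower genes included several regulated by interferon. NMI, which encodes an interferon-induced STAT-interacting protein, was at 9.22 FPKM in DMSO 48 h, 9.94 in 100 nM 48 h and 4.80 in 200 nM 48 h (log2 change -0.82). ISG15, the interferon-induced ubiquitin-like modifier, was at 55.3, 58.9 and 30.7 FPKM (-0.83), and IFITM1, an antiviral membrane protein, at 2.03, 7.01 and 0.78 (-0.77). PLPP5 (5.57, 5.11 and 2.63 FPKM), the caveolar protein gene CAVIN3 (82.0, 86.4 and 45.1) and PHF11 (6.11, 7.35 and 3.27) were of similar size.

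Of 37 interferon-stimulated genes tested, 26 were lower and 10 higher, with a median of -0.15, beside 48.6% lower and a median of 0.01 over all tested genes. Past 1.5-fold, 4 were lower (ISG15, IFITM1, ISG20 and OASL) and 1 higher, beside 0.463% lower and 1.53% higher over all tested genes. The higher one, IFI6, which encodes a mitochondrial interferon-induced protein, was at 12.2 FPKM in DMSO 48 h, 8.27 in 100 nM 48 h and 20.1 in 200 nM 48 h (log2 change 0.68). IFIT3 was at 83.0, 84.6 and 55.5 FPKM (-0.57) and IFIT2 at 19.6, 22.2 and 12.99 (-0.56), both just within 1.5-fold. Within MHC class I presentation, 12 of 18 were lower with a median of -0.05, though 6 of 18 against DMSO 24 h, PSMB10 being the member past 1.5-fold.

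The core GAAANNGAA, printed in capitals above, was present in the promoters of all 3 lower genes that had one in the table (PSMB10, ATF5 and H2AC20). It was present in 8 of 35 promoters (22.9%) of genes at least 1.5-fold lower, 9 of 133 (6.77%) of those at least 1.5-fold higher, 6.34% of tested genes and 8.29% of all genes in the table. Of the 29 tested interferon-stimulated genes with a promoter, 20 (69.0%) held it. In ATF5 it falls in a run of purines, where matches overlap. The group of 3 is too small to set against these shares.

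At high expression (50 FPKM or more in either library) changes were below 2-fold. DKK1 and the IGF-binding protein gene IGFBP3 (56.1 FPKM in DMSO 48 h, 25.8 in 100 nM 48 h, 110 in 200 nM 48 h, log2 change 0.96) were followed by ANKRD1, a cardiac ankyrin repeat protein and YAP target (285, 140 and 528 FPKM, 0.89), by the sodium pump subunit gene ATP1B1 (78.0, 65.7 and 135, 0.78) and by the secreted protease gene HTRA1 (30.2, 22.1 and 51.1, 0.74). TINAGL1 (0.70), the collagen lysyl hydroxylase gene PLOD2 (0.66) and HEG1 (0.61) completed the 8. All 8 were lowest of the 48 h libraries in that labelled 100 nM 48 h.

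In the other direction CAVIN3 and ISG15 were followed by the nucleosome-binding protein gene HMGN2 (126 FPKM in DMSO 48 h, 144 in 100 nM 48 h and 80.4 in 200 nM 48 h, log2 change -0.64), by PCBD1 (50.7, 52.5 and 32.3, -0.64) and by the AP-1 component gene FOSL1 (428, 528 and 281, -0.61). IFIT3, MZT2B (-0.57) and TSPO (-0.56) completed this group. HMGN2 had its lowest values of the 6 libraries in the 2 treated with 200 nM, at 79.4 FPKM at 24 h and 80.4 at 48 h.

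**Figure D4:**
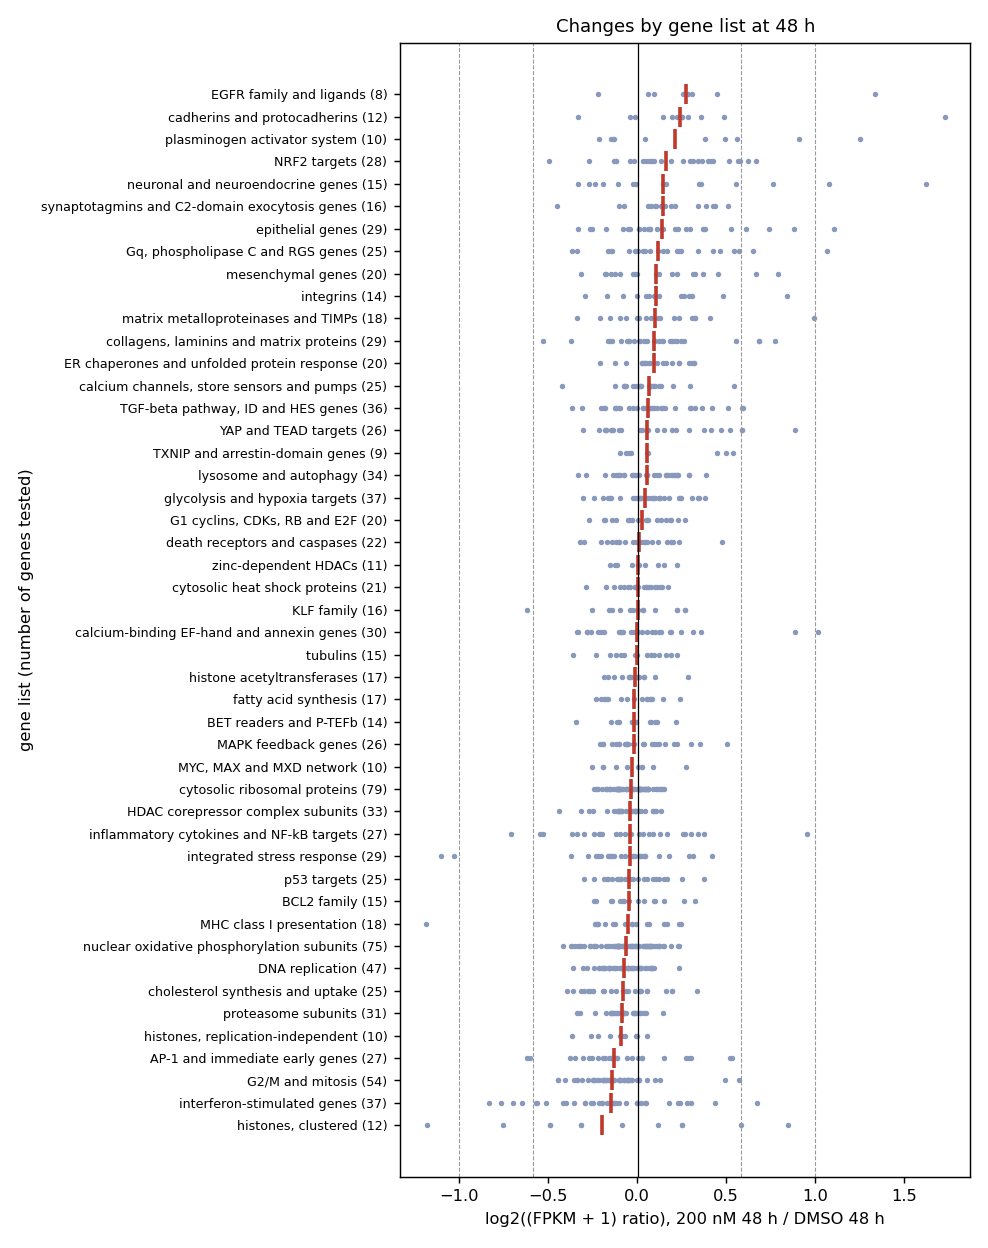
Log2 change, 200 nM 48 h over DMSO 48 h (x axis), of each tested gene (blue points) in the gene lists with at least 8 tested genes, marker lists left out (y axis, number in parentheses), with the median of each list as a red bar. The solid line is the median of all tested genes (0.01) and dashed lines mark 1.5-fold and 2-fold. Medians run from -0.20 (clustered histones) to 0.27 (EGFR family and ligands).

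Cell cycle genes differed by small amounts, mostly downward. Of 54 genes of G2/M and mitosis, 46 were lower and 8 higher, beside 48.6% lower over all tested genes, with a median of -0.14 and 0 past 1.5-fold. CCNB2, a mitotic cyclin, was at 65.4 FPKM in DMSO 48 h, 69.5 in 100 nM 48 h and 47.8 in 200 nM 48 h (log2 change -0.44), and FOXM1, a transcription factor of mitotic genes, at 65.7, 68.7 and 51.7 (-0.34). KIF20B was at 7.65, 7.16 and 11.9 FPKM (0.58). The balance of the list depended on the reference, since 32 of 54 were lower against 100 nM 48 h and 46 against DMSO 24 h.

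Of 47 DNA replication genes, 34 were lower, with a median of -0.07, and 26 of 31 proteasome subunits were lower, with a median of -0.09, again beside 48.6% of all tested genes. Neither balance held against 100 nM 48 h, where 22 of 47 replication genes (median 0.0074) and 15 of 31 proteasome subunits (median 0.0011) were lower. TYMS, the thymidylate synthase gene, was at 102 FPKM in DMSO 48 h, 97.4 in 100 nM 48 h and 79.1 in 200 nM 48 h, compared with 153 and 38.4 in DMSO and 200 nM at 24 h. CDKN1A, which encodes the cyclin-dependent kinase inhibitor p21 and is a common HDAC inhibitor target, was at 44.3 FPKM in DMSO 48 h, 25.8 in 100 nM 48 h and 52.9 in 200 nM 48 h (log2 change 0.25), and at 13.2, 30.6 and 48.8 at 24 h. The 200 nM values of CDKN1A were close at both times, while DMSO 48 h was above DMSO 24 h.

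The zinc-dependent HDAC genes themselves differed little. All 11 were tested, 7 were higher and 4 lower, the median was 0.01, and 0 passed 1.5-fold; after median-of-ratios scaling 4 were higher and 7 lower. HDAC11 (4.55 to 5.48 FPKM, log2 change 0.22) and HDAC3 (56.7 to 63.1, 0.15) were at the upper end and HDAC4 (2.8 to 2.42, -0.15) at the lower. HDAC1 was at 65.9 and 66.2 FPKM. Among corepressor subunits, 23 of 33 were lower (median -0.04), beside 48.6% of all tested genes, with CHD3, a remodeller of the NuRD complex, at 19.8 FPKM in DMSO 48 h, 29.8 in 100 nM 48 h and 14.4 in 200 nM 48 h (-0.44).

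Clustered histone genes, whose transcripts mostly lack poly(A) tails, were scattered. Of 12 tested, 5 were higher and 7 lower, with a median of -0.20, which turned to 0.21 after rescaling to TPM, when more of them passed the filter. H2BC5 was at 8.73 FPKM in DMSO 48 h, 12.6 in 100 nM 48 h and 16.6 in 200 nM 48 h (log2 change 0.85), and H2BC18 at 1.31, 1.22 and 0.37 (-0.75). Of 10 replication-independent histone genes 9 were lower, beside 48.6% of all tested genes, with a median of -0.09 and 0 past 1.5-fold. Among them H2AX was at 113, 115 and 87.7 FPKM (-0.37).

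Of 29 epithelial genes tested, 22 were higher and 7 lower (median 0.14), 4 past 1.5-fold upward and 0 downward, beside 51.0% higher and 1.53% past 1.5-fold upward over all tested genes, and of the 40 found 25 were higher and 11 lower. Among the 29, 1 was tested through the 200 nM library only. Besides TJP3 the members past 1.5-fold were the tight junction genes CLDN1 (16.4 FPKM in DMSO 48 h, 4.81 in 100 nM 48 h, 31.0 in 200 nM 48 h) and F11R (6.0, 3.83 and 9.69) and the keratin gene KRT15 (3.75, 0.71 and 6.95). All 3 tested genes of a separate short list of luminal and epithelial identity were lower, by less than 1.5-fold, the surface antigen gene EPCAM at 2.99, 3.56 and 2.35 FPKM (-0.25), the transcription factor gene FOXA1 at 1.59, 1.28 and 1.52 (-0.04), and ERBB2 as given above. The adherens junction gene CDH1 was at 0.24, 0.28 and 0.32 FPKM and the mesenchymal marker VIM had a log2 change of -0.32. Mesenchymal genes were evenly divided, with 11 of 20 higher, TGFBI (9.06, 4.34 and 16.4 FPKM, 0.79) and SNAI1 (0.88, 0.68 and 1.99, 0.67) past 1.5-fold. SNAI1 was tested through the 200 nM library only. Among 14 integrins tested 10 were higher and 4 lower (median 0.11), beside 51.0% higher over all tested genes. Among 29 collagen, laminin and matrix protein genes 19 were higher and 10 lower (median 0.10). The members past 1.5-fold were ITGB3 (5.34, 2.41 and 10.4 FPKM, 0.84) and the matrix genes THBS1 (18.8, 11.1 and 32.9, 0.78), TNC (4.36, 1.09 and 7.63, 0.69) and COL1A1 (2.55, 1.65 and 4.72, 0.69).

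Stress and metabolic lists moved in small steps. Of 28 NRF2 targets, genes of the antioxidant response, 21 were higher with a median of 0.16, beside 51.0% higher over all tested genes. Among the 28, 2 were tested through the 200 nM library only, AKR1B10 being one, and could only count as higher. Against 100 nM 48 h, 15 were higher and 13 lower, with a median of 0.05. Members included AKR1C3 (13.9 FPKM in DMSO 48 h, 11.3 in 100 nM 48 h and 22.0 in 200 nM 48 h, log2 change 0.62), AKR1B10 (0.89, 0.54 and 2.0, 0.67) and SRXN1 (36.4, 27.8 and 54.9, 0.58), while KEAP1, the NRF2 inhibitor, was at 18.9, 24.0 and 13.1 (-0.50). Of 20 ER chaperone and unfolded protein response genes 17 were higher with a median of 0.09, and HSPA5, the main ER chaperone, was at 198 FPKM in DMSO 48 h, 153 in 100 nM 48 h and 245 in 200 nM 48 h (0.31). Cytosolic heat shock protein genes were divided, 11 higher and 10 lower. Cytosolic ribosomal protein genes had a median of -0.03, with 48 of 79 lower, and 36 of 79 lower against 100 nM 48 h. TXNIP, a thioredoxin-binding protein gene often induced by HDAC inhibitors, was at 161, 217 and 234 FPKM (0.54), the 100 nM 48 h library here lying between the other 2.

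Calcium-linked genes, the subject of the study's follow-up, included few large changes at 48 h. RGS2, a regulator that shuts off Gq signalling, was at 6.75 FPKM in DMSO 48 h, 5.08 in 100 nM 48 h and 11.2 in 200 nM 48 h (log2 change 0.65), and at 4.70, 8.23 and 7.62 FPKM at 24 h in DMSO, 100 nM and 200 nM. Its value in 200 nM 48 h was the highest of the 6. PLCB3, the phospholipase downstream of Gq, was at 32.2 FPKM in DMSO 48 h, 36.7 in 100 nM 48 h and 29.03 in 200 nM 48 h (-0.14). Of 25 Gq, phospholipase C and RGS genes tested, 17 were higher and 8 lower (median 0.12), beside 51.0% higher and 1.53% past 1.5-fold upward over all tested genes, with F2RL2 and RGS2 past 1.5-fold.

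Of 16 synaptotagmin and C2-domain exocytosis genes tested, 13 were higher and 3 lower (median 0.14), beside 51.0% higher over all tested genes, with 0 past 1.5-fold, and 3 of the 16 were tested through the 200 nM library only. Over the 38 found, most below 1 FPKM, 27 were higher and 4 lower with a median of 0.08. SYTL2 was at 4.35 FPKM in DMSO 48 h, 2.97 in 100 nM 48 h and 6.26 in 200 nM 48 h (0.44), SYT12 at 1.5, 1.84 and 2.36 (0.43) and TC2N at 0.66, 0.24 and 1.37 (0.51). SYT7 (0.22 and 0.79 FPKM) and SYT1 (0.59 and 0.75) were under 1 FPKM in both libraries. Calcium channels, store sensors and pumps had 17 of 25 higher with a median of 0.07, also beside 51.0%, and 2 of the 25 were tested through the 200 nM library only. The calcium-binding EF-hand and annexin genes were evenly divided, 15 to 15. Past 1.5-fold were SCIN and CALB2 (7.34, 3.53 and 14.5 FPKM, 0.89), both higher, beside 1.53% of all tested genes past 1.5-fold upward.

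Matrix metalloproteinases differed among themselves. MMP15, a membrane-bound member, was at 1.33 FPKM in DMSO 48 h, 1.10 in 100 nM 48 h and 3.64 in 200 nM 48 h, and MMP14 at 63.7, 69.0 and 50.1 (log2 change -0.34). The collagenase gene MMP1 was at 14.1, 5.82 and 14.9 FPKM (0.08), and MMP3 at 0.82, 0.15 and 1.10 (0.21). MMP2 was at 0.05 and 0.04 FPKM. Among the 48 h libraries MMP1 and MMP3 were lowest in that labelled 100 nM 48 h.

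The same genes were then read in the 24 h libraries, which are separate from the 48 h libraries. At 24 h, 523 of 11660 genes (4.49%) were at least 2-fold higher with 200 nM and 172 (1.48%) at least 2-fold lower. Of the 24 genes higher at 48 h, 20 reached 1 FPKM in DMSO 24 h or 200 nM 24 h. Of these 20, 19 were higher at 24 h and 18 at least 2-fold. The median log2 change was 2.26 at 24 h over the 20, against 1.28 at 48 h over the 24. The median of the 24 in DMSO 24 h was 0.26 FPKM. A gene under 1 FPKM there, such as TNFSF18, PCDH1 or SCG2, could enter only through 200 nM 24 h. The filter then fixed its direction as higher. Of the 7 lower genes 6 were tested at 24 h, 5 were lower and 3 (PSMB10, ATF5 and NUPR1) at least 2-fold. Of the 178 genes at least 1.5-fold higher, 155 of the 157 tested at 24 h were higher there. The same limit applies, since the median of the 178 in DMSO 24 h was 0.705 FPKM. Of the lower genes at 1.5-fold, 44 of 49 tested were lower. The shares of all genes higher or lower by any amount at 24 h were not counted, so these counts lack a background.

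Changes at 24 h were mostly the larger. In 17 of the 20 higher genes and 137 of the 157 at 1.5-fold the change had the same direction and was larger at 24 h. CPA4 had a log2 change of 3.88 at 24 h and 1.42 at 48 h, and the LIM protein gene CRIP2 3.59 and 0.96. DMSO levels went with this: the median of the 24 genes was 0.26 FPKM in DMSO 24 h and 1.28 in DMSO 48 h, while it was 4.74 in 200 nM 24 h and 5.52 in 200 nM 48 h. Conversely IL7R (0.58 at 24 h, 0.93 at 48 h) and PSG1 (0.93 and 1.39) changed more at 48 h. Across the 11485 genes tested at both times the changes had a Pearson correlation of 0.64 and a Spearman correlation of 0.59, given as a description over genes, which are not independent.

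The choice of reference library set the number of calls. Against DMSO 24 h, 549 of 11669 genes (4.70%) were at least 2-fold higher in 200 nM 48 h and 53 (0.454%) lower, and against 100 nM 48 h 200 of 11694 (1.71%) were higher and 34 (0.291%) lower. These comparisons share the 200 nM 48 h library and are not independent of each other. For AREG the reference values were 8.66 FPKM in DMSO 48 h, 3.42 in 100 nM 48 h and 1.69 in DMSO 24 h, beneath 23.4 in 200 nM 48 h. For ATF5 they were 11 FPKM, 15.4 and 28.8 in the same order, above 4.87 in 200 nM 48 h, and for NUPR1 they were 6.21, 4.51 and 2.14, around 2.35.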

How the data were processed

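RNA-seq libraries of MDA-MB-231 cells, 1 per condition, were compared through FPKM values that the authors calculated and deposited per gene, rounded to 2 decimals. The submitters' processing notes name Bowtie2, RSEM and hg19, without versions; other filters are not given in the sources used here. Symbols were taken by NCBI Gene ID from RefSeq (GRCh38.p14), which matched 16585 of 16623 genes. Changes were computed as log2((FPKM + 1) ratio) for genes whose FPKM was 1 or more in at least 1 of the 2 libraries, and called at 2-fold. The rule was also run on simulated data, with planted changes beyond 2-fold in genes at 5 FPKM or more. That run does not bear on how smaller changes, or changes at lower expression, are called. Estimated depth ranged from 15600000 to 18000000 fragments, read from the spacing of low values of single-transcript genes 500 to 1500 bases long (GENCODE lengths). Counting error is unknown per gene, and no test was run.

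Genes were named if past 2-fold, among the 15 next in each direction, among the 8 largest changes in each direction at 50 FPKM or more, measured or labelled by the study, among the 4 largest in each of 52 gene lists, or zinc-dependent HDACs; not all are printed, and some are not reported here. Genes outside this rule were named after their values were seen. The comparison, its members and the lists were chosen with earlier results of these data known. Alternatives were other pseudocounts, filters, scalings, references and a 1.5-fold limit. For genes with several RefSeq starts the first listed was used. The analysis ran in Python 3.11.15 with pandas 2.3.3, numpy 2.4.6 and, for plots, matplotlib 3.10.9.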

Additional observations from a re-analysis of the deposited data

Results flagged for a closer look

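SERF1A and TGIF2-RAB5IF changed past 2-fold in opposite directions at the 2 times, a difference that was not tested. On the log2(FPKM + 1) scale SERF1A differed by 1.93 at 48 h and by -3.33 at 24 h, and TGIF2-RAB5IF by -1.58 at 48 h and by 2.20 at 24 h. In each of these differences 1 of both libraries is listed at 0, so the size depends on the pseudocount. Both genes share sequence with others (SERF1B, and TGIF2 and RAB5IF), whose summed FPKM with them went from 17.8 to 13.7 and from 92.0 to 94.3 between DMSO 48 h and 200 nM 48 h.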

How the results depend on the processing

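The number of genes at least 2-fold higher (24) and lower (7) became 103 and 25 with a pseudocount of 0.1, 126 and 27 with 0.01, 81 and 16 after rescaling to TPM, 178 and 54 at 1.5-fold, and 549 and 53 with DMSO 24 h or 200 and 34 with 100 nM 48 h as the reference. When 5 FPKM was required in either library they were 12 and 3, and with 1 FPKM required in both 16 and 4. They stayed at 24 and 7 without a filter and at 23 and 7 with median-of-ratios factors. Rescaling to TPM divided FPKM by similar numbers, 0.428 in DMSO 48 h and 0.421 in 200 nM 48 h. It raised the values of both libraries, so the pseudocount of 1 and the filter of 1 weighed less than on the FPKM scale. SERF1A (-1.39) and NUPR1 (0.093) turned direction with DMSO 24 h as the reference. Of 1650 changes of named genes under an alternative 1442 kept their side of 2-fold, and of 468 list medians 393 moved by less than 0.1. Most named genes were within 2-fold to begin with and counted as kept if they stayed within it. Many list medians were smaller than 0.1, so a median could change sign and still count as moving by less. The cause of these shifts was not tested. Counts at low FPKM are limited by depth, and cultures were not repeated. No paired analysis was possible because no condition had a repeat culture.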
